A study of Rattus norvegicus with 30 samples.

Results

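Genes of the motile cilium were followed in RNA-seq of rat lung. The set was fixed by name, with earlier results of these data known: protein-coding genes whose symbol begins with Dnah, Dnai, Rsph, Tekt, Ift, Drc or Cfap followed by a digit, plus Tppp3, Stoml3, Zmynd12, Ccdc96, Ccdc39 and Ccdc40. It held 59 of the 22914 genes in the count table, under 57 symbols, since Cfap46 and Rsph4a have 2 Ensembl entries each. Ccdc40 is not analysed here. The families were 14 Cfap, 14 Ift, 10 Dnah, 7 Rsph, 5 Tekt, 2 Dnai and 2 Drc genes, beside 5 genes named singly. Stoml3, Zmynd12 and Ccdc96 were added with their change between SAP and Sham rats over time already known, so their differences between SAP and Sham rats are a description, given without a p. They are included in the counts of called members, which are also given without them.

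A motile cilium is a hair-like extension of the ciliated cells that line the airways, and its beat moves mucus out of the lung. Its core, the axoneme, is a ring of doublet microtubules. Dynein motors form outer and inner arms on the doublets, radial spokes and the nexin-dynein regulatory complex control their sliding, and tektins lie inside the doublet wall. Intraflagellar transport (IFT) particles carry parts to the tip, and since almost every cell can build a non-motile cilium, IFT genes are used well beyond ciliated cells. In airway cells the transcription factors FOXJ1 and the RFX family switch the axoneme genes on.

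The lungs came from male Sprague Dawley rats, 8 weeks old, 3 in each of 10 groups, taken 6 or 24 h after an operation. Sham rats had the pancreas moved only, and Con rats had sterile saline infused into the biliopancreatic duct. SAP rats, a model of severe acute pancreatitis with lung injury, had 5% sodium taurocholate, a bile salt, infused there instead. DEX rats had the same infusion and then dexamethasone, a glucocorticoid, into a vein at 10 mg/kg, and Emo rats had the infusion and then emodin, a plant anthraquinone, into the stomach. Doses were given at 2 and 12 h, so rats taken at 6 h had had 1 dose. The emodin dose is 40 mg/kg in the protocol and 10 mg/kg in the sample descriptions. Rats not given a drug received its vehicle, saline or carboxymethylcellulose. Different rats were used at 6 and 24 h, and each library is 1 rat.

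Each library held 16813949 to 34692306 reads on genes. Per the paper's supplement, every SAP, DEX and Emo library had a lower share of reads mapped to 1 place than every Sham and Con library. Comparisons across these groups carry that difference too, and its part was not tested. The 59 members took 1049 (SAP-24h replicate 1) to 2183 (DEX-6h replicate 3) counts per 1e6 counts. Levels are given in FPKM, reads scaled by gene length and by the mapped reads of the library, so that genes can be compared with each other. Differences were tested on the counts with edgeR's quasi-likelihood test, and a gene was called at a Benjamini-Hochberg adjusted p under 0.05, over the 15934 genes tested, with a change of at least 2-fold. Of the members, 57 passed the filter on low counts. The other 2, Rsph6a and an entry of Rsph4a (ENSRNOG00000047471), averaged 0.011 and 0.002 FPKM. In whole lung, fewer ciliated cells and less RNA per ciliated cell cannot be told apart. The lung label was borne out by its markers: the summed level of 8 alveolar type 2 genes was at least 25225 FPKM in every library, and 7 germ cell genes, such as Prm1 and Ddx4, summed to at most 0.16 FPKM.

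Members differed widely in level. Tppp3, a tubulin polymerization protein used far beyond ciliated cells, averaged 549 FPKM over the 30 libraries and stood apart from the rest. Cfap126, which helps place basal bodies, followed at 47.1 FPKM, then Ift46 (38.4 FPKM), Cfap20 (36.6 FPKM), Ift20 (32.6 FPKM) and Ift27 (30.1 FPKM). Cfap52 averaged 9.93 FPKM, Drc1 4.06 FPKM, Ccdc96 3.74 FPKM, Drc7 3.37 FPKM, Zmynd12 3.27 FPKM, Ccdc39 1.53 FPKM and Stoml3 0.434 FPKM. The most abundant radial spoke genes were Rsph9 (23.4 FPKM), Rsph1 (20.8 FPKM) and Rsph10b (9.21 FPKM), and the most abundant tektins were Tekt1 (14.9 FPKM), Tekt4 (13.03 FPKM) and Tekt2 (11.9 FPKM). The intermediate chains of the outer arm, Dnai2 and Dnai1, averaged 5.59 and 4.83 FPKM. The heavy chains, which are very long transcripts, were lower: the highest of them were Dnah6 (2.33 FPKM), Dnah1 (1.53 FPKM) and Dnah12 (1.23 FPKM), all of the inner arm. Dnah17 and Dnah8, heavy chains best known from sperm, were close to 0, at 0.061 and 0.025 FPKM.

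**Figure D1:**
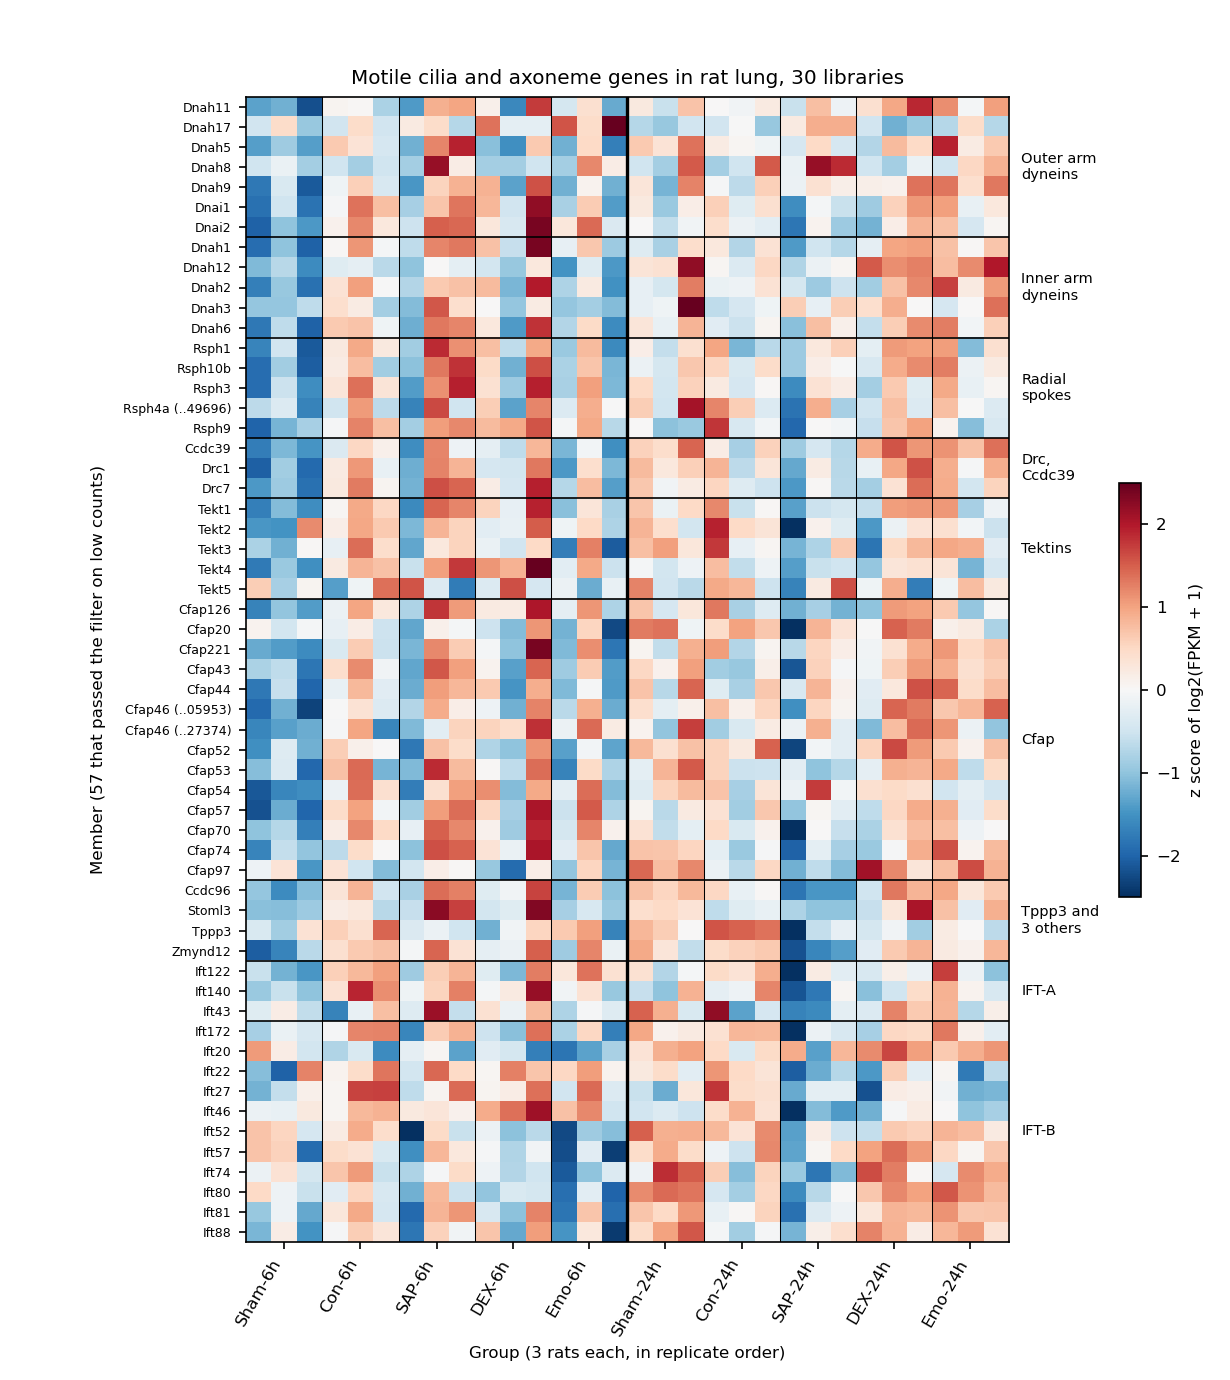
Heat map of the 57 members that passed the filter (rows, ordered by role) in 30 libraries (columns, 3 per group). Color is the z score of log2(FPKM + 1) within each gene. Most rows outside the Ift family share the same columns of low values (Sham-6h, replicate 1 of SAP-6h and SAP-24h, and replicates 1 and 3 of Emo-6h) and of high values (DEX-6h replicate 3), while Tppp3, Tekt5, Dnah17 and several Ift rows do not.

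The axoneme genes rose and fell together from rat to rat. For each member the level was set against the mean z score of the other members outside the Ift family, over 30 libraries. Pearson's r was 0.8 or more for 25 of 43 members outside the Ift family (58.1%), with a median of 0.828, as against 1.21% of 13088 other protein-coding genes with a mean of at least 0.5 FPKM, whose median r was 0.06. The closest followers were Drc1 (r = 0.948) and Drc7 (r = 0.945), both of the nexin-dynein regulatory complex, Rsph10b (r = 0.94) and Dnah6 (r = 0.938). In the Ift family the median r was 0.506, and only 1 of 14, Ift81, reached 0.8 (r = 0.87). The 6 members with the lowest r were Tppp3 (0.301), Ift74 (0.297), Dnah8 (0.247), Ift20 (-0.035), Tekt5 (-0.244) and Dnah17 (-0.312). These values are descriptions: the 30 libraries share groups and depth, and rats of the same treatment are among the points.

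**Figure D2:**
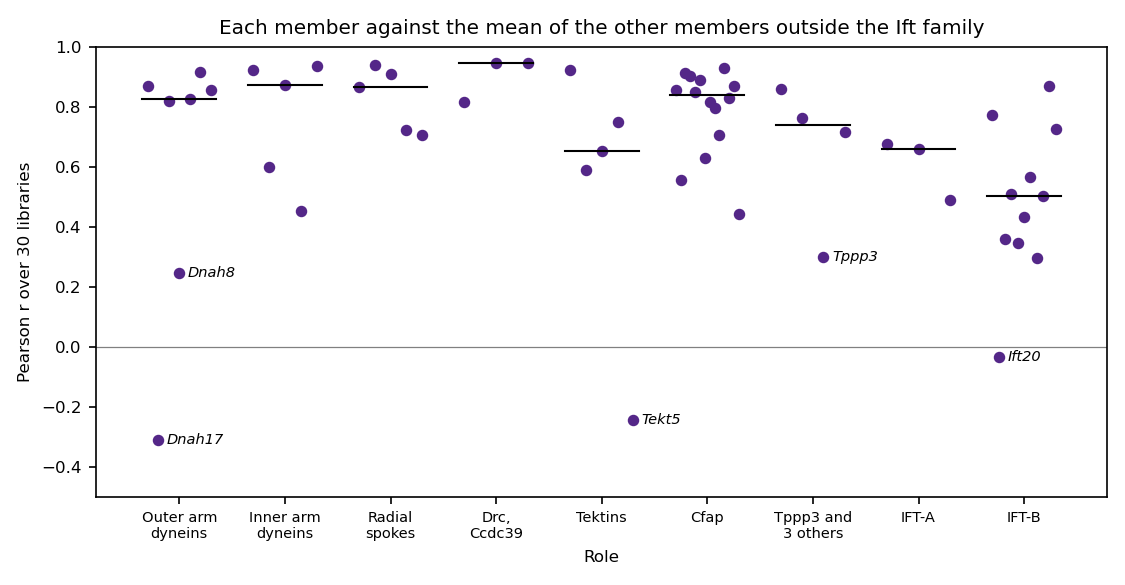
Pearson's r over 30 libraries of each tested member with the mean z score of the other members outside the Ift family, by role. Points are genes and black lines are medians. The medians of dyneins, spokes, Drc and Cfap genes lie above 0.8, those of the Ift genes lie lower, and Dnah17, Tekt5, Ift20, Dnah8 and Tppp3 lie apart.

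Drc1 shows the shared pattern in single rats. Its level was 1.97, 2.96 and 2.04 FPKM in Sham-6h and 4.21, 5.44 and 3.70 FPKM in Con-6h. In SAP-6h the rats had 2.63, 5.68 and 5.07 FPKM, and in DEX-6h 3.44, 3.39 and 5.81 FPKM. The 3 Sham-6h rats lay below every Con-6h rat, while SAP-6h held both a rat within the range of Sham-6h and 2 rats within or above that of Con-6h. At 24 h Sham, Con and SAP rats had 4.24 to 4.97, 3.18 to 5.06 and 2.59 to 4.18 FPKM. SAP-24h was thus the lower end of a spread that overlapped Con-24h.

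Outside the set, the 15 protein-coding genes most like the members by Pearson's r over the 30 libraries included Ak9, Ccdc65, Tmem212, Iqcd, Lrguk, LOC360479, Lrrc48, Spata18, Wdr66, Armc3, Spag6, Ldlrad1, Lrrc51 and Dnaaf1. The r of the 15 genes with the mean z score of the 57 members ran from 0.934 to 0.951, and their mean level from 1.4 FPKM (Lrguk) to 26.8 FPKM (Ldlrad1). Of these, 11 were also among the 15 highest by Spearman's rank correlation. Lrrc48 carries the symbol Drc3 in RefSeq. Dnaaf1 is needed to assemble dynein arms, and Spag6 belongs to the central pair of microtubules.

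Because the axoneme genes moved together, their promoters were read from RefSeq (GRCr8), as 250 bases before to 50 bases after each gene's start. All 59 members matched a RefSeq gene by symbol, and 48 of them had a promoter, which gave 47 different promoters. The core site bound by RFX factors, GTTGCC, searched on both strands, stood in 16 of 47 (34.0%) and in 12.3% of 19005 protein-coding promoters of the same length. The longer X-box, the arms GTNNCC and GGNNAC 2 bases apart, which reads alike on both strands and can hold the core site within it, stood in 5 of 47 (10.6%) against 1.83%. It was in 1 of the 24 promoters of members with r of at least 0.8 (4.17%), in 8.57% of those outside the Ift family and in 18.2% of those of Ift members. A forkhead site, TGTTTAC, on either strand, stood in 2 of 47 (4.26%) against 3.33%. The shares were alike for the core site in members outside the Ift family (34.3% of 35) and in Ift members (36.4% of 11), although the levels of the Ift genes followed the rest less closely. A match is only a run of letters, and binding was not measured.

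The stretches with a match before the start are shown for 6 members, inner arm heavy chains with the full X-box, a regulatory complex gene, a tektin, an intermediate chain and an IFT gene, to let the motif be compared across roles. The motif is in capitals, each runs 5′ to 3′ on the gene's strand, and GGCAAC is the core site read on the other strand.

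Dnah2, chr10:54766035-54766094, minus strand: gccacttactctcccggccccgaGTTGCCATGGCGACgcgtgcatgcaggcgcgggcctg
Dnah12, chr16:1944667-1944726, plus strand: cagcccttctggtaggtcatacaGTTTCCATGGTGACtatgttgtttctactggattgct
Drc1, chr6:31779257-31779316, minus strand: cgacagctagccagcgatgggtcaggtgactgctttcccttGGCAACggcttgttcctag
Tekt1, chr10:57479128-57479187, minus strand: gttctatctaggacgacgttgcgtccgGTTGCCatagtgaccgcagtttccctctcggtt
Dnai2, chr10:100258940-100258999, plus strand: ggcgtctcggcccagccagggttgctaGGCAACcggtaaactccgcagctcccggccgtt
Ift88, chr15:35688926-35688985, plus strand: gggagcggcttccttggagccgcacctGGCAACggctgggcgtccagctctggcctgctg

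Counted with the first base of the gene as 0, the match runs from -45 to -32 in Dnah2, from -62 to -49 in Dnah12, from -19 to -14 in Drc1, from -39 to -34 in Tekt1, from -55 to -50 in Dnai2 and from -34 to -29 in Ift88. Stoml3 and Ccdc96 had neither RFX motif in this window, and Zmynd12 had the core site after the start, from 18 to 23.

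At 6 h the lowest levels were mostly in Sham rats. Of 43 tested members outside the Ift family, 37 had their lowest 6 h mean in Sham-6h, and 33 had their lowest mean of all 10 groups there. The mean z score of these 43 genes was -1.357, -0.838 and -1.341 in the Sham-6h rats and 0.061, 0.715 and -0.074 in the Con-6h rats, so these groups did not overlap, although SAP-6h replicate 1 (-0.933) and Emo-6h replicate 3 (-0.939) lay within the Sham-6h range. Every Sham-6h rat lay below every Con-6h rat in 32 of the 57 members, which holds for 7.27% of all genes tested. No member passed the test in Sham-6h vs Con-6h, and neither did any other gene (0.0%). At an unadjusted p under 0.05, edgeR placed 32 members lower and 1 higher, against 4.64% and 3.97% of all genes. DESeq2 called 0 members as well. The median log2 difference of the members was -0.66 (Sham-6h minus Con-6h) and that of all genes 0.00.

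In SAP-6h most members stood above Sham-6h. Dnah1 and Stoml3 were called higher in SAP-6h than in Sham-6h, that is 2 of 57 members against 0.188% of all genes, and none was lower, against 0.0314%. Leaving aside the 3 genes chosen with SAP and Sham values known, 1 of 54 was called. Dnah1, a heavy chain of the inner arm, had 0.71, 1.04 and 0.67 FPKM in Sham-6h and 1.19, 2.16 and 2.22 FPKM in SAP-6h. Its log2 difference was 1.25 ± 0.27 (SE, adjusted p = 0.0457, edgeR), and the groups did not overlap. In Con-6h, Dnah1 stood at 1.50, 2.09 and 1.46 FPKM. Stoml3, a membrane protein of the stomatin family, had 0.04, 0.03 and 0.08 FPKM in Sham-6h and 0.18, 1.55 and 1.2 FPKM in SAP-6h.

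Most other members pointed the same way in SAP-6h vs Sham-6h without being called. The fitted difference was above 0 in 53 of 57 members, with a median of 0.86 on the log2 scale against -0.02 over all genes, and 35 members had an unadjusted p under 0.05 and were higher, against 7.25% of all genes. By role the median log2 difference was 1.25 for 5 inner arm heavy chains, 1.10 for Drc1, Drc7 and Ccdc39, 0.95 for 7 outer arm genes, 0.91 for 5 radial spoke genes and 0.90 for 14 Cfap genes. It was 0.29 for 5 tektins, 0.31 for 3 IFT-A genes and 0.11 for 11 IFT-B genes. The 2 calls rested on the choice of libraries and of model. Without SAP-6h replicate 1, 11 members were called, and without any 1 of the other 5 rats none was. DESeq2 called 12 members and 191 genes in all, against 35 genes by edgeR, and a fit of these 6 libraries alone called 0 genes of any kind.

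Against Con-6h, by contrast, SAP-6h rats had 0 of 57 members called by edgeR and by DESeq2, where 0.163% of all genes were called, and 0 members at an unadjusted p under 0.05 in either direction, against 10.4% of all genes. The median log2 difference (SAP-6h minus Con-6h) was 0.09. The spread among the 3 SAP-6h rats was wide, with mean z scores of -0.933, 1.053 and 0.768.

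**Figure D3:**
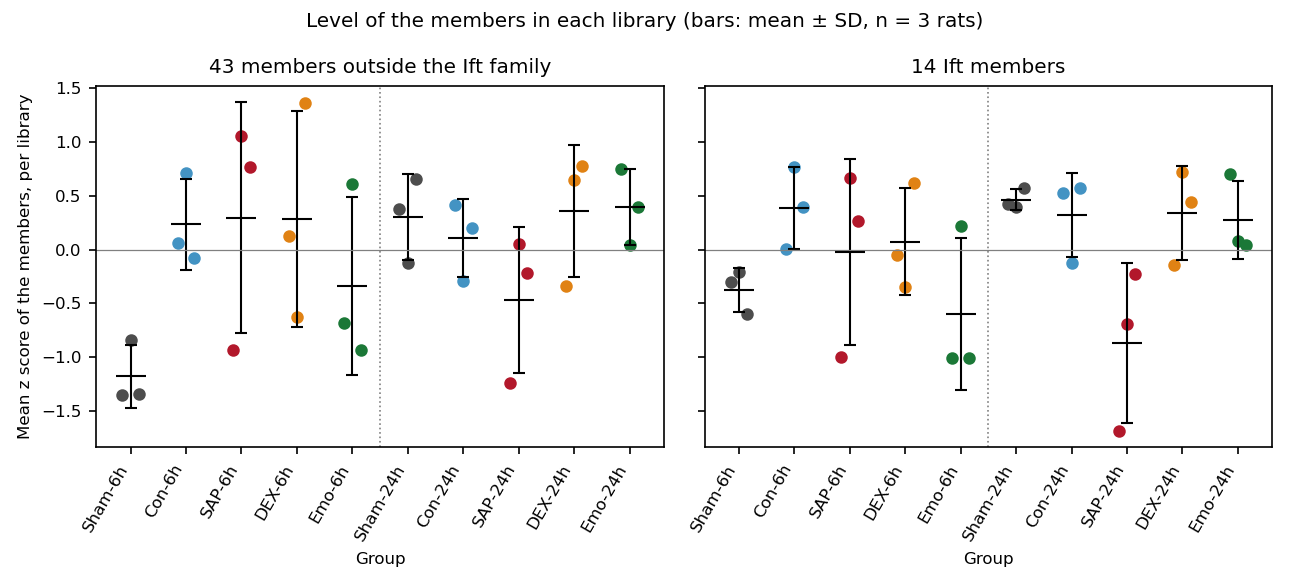
Mean z score of log2(FPKM + 1) in each library, for 43 members outside the Ift family (left) and 14 Ift members (right). Points are rats, black bars are mean ± SD of 3 rats, and the dotted line parts 6 h from 24 h. Sham-6h is the lowest group on the left, SAP-24h is the lowest 24 h group on both sides, and the SAP, DEX and Emo rats of 6 h spread over most of the range.

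**Figure D4:**
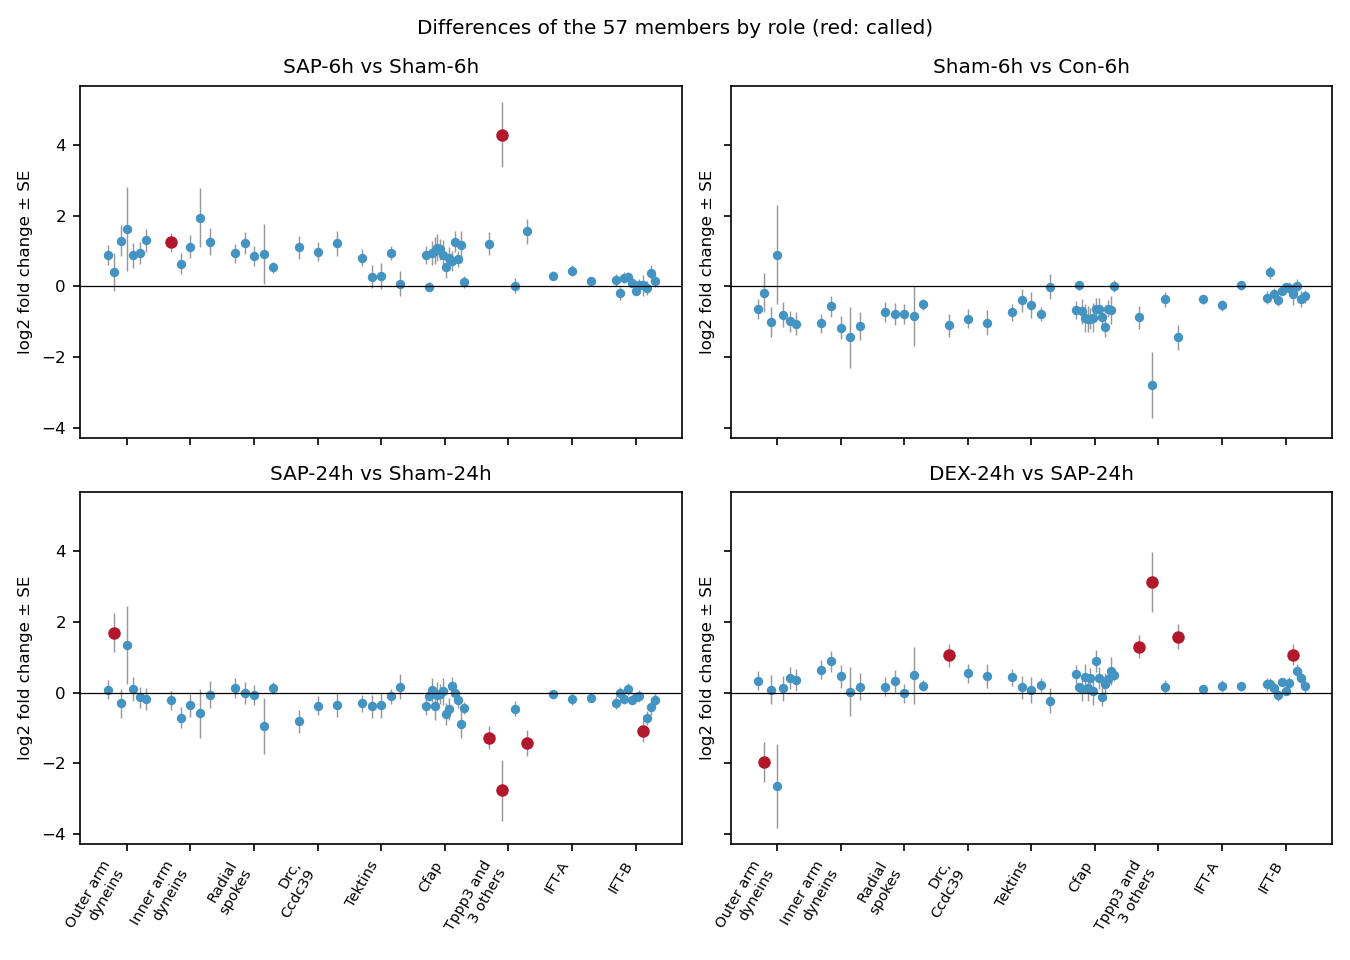
Fitted log2 fold change ± SE of the 57 tested members by role in 4 comparisons, each named first group minus second. Red points were called (adjusted p under 0.05 and at least 2-fold). Most members outside the Ift family lie above 0 in SAP-6h vs Sham-6h and below 0 in Sham-6h vs Con-6h. In SAP-24h vs Sham-24h, 46 of the 57 members lie below 0, with a median of -0.20.

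At 24 h, SAP rats had the lowest mean of the 5 groups in 30 of 43 members outside the Ift family. The share of all genes with their lowest 24 h mean in SAP-24h was not counted, so this is not shown to be a trait of the members. The mean z score of the 43 was -1.238, 0.054 and -0.216 in the 3 SAP-24h rats and -0.127 to 0.657 in Sham-24h, so the groups overlapped. The mean z score of the 14 Ift members was lower in each SAP-24h rat (-1.688, -0.691 and -0.230) than in each Sham-24h rat (0.399 to 0.573). Of the 14, 13 were fitted below 0 in SAP-24h vs Sham-24h, 1 was above 0, and 1 was called. In SAP-24h vs Sham-24h, 4 of 57 members were called lower, where 3.01% of all genes were, and 1 was called higher, where 1.98% were. The fitted difference was below 0 in 46 of 57 members, against 53% of all genes. The median log2 difference of the members was -0.20 against -0.03 over all genes. All 3 SAP-24h rats lay below all 3 Sham-24h rats in 22 of 57 members, and this held for 21.8% of all genes.

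The members called lower were Zmynd12, Ccdc96, Stoml3 and Ift74, and the member called higher was Dnah17. Leaving aside Stoml3, Zmynd12 and Ccdc96, which were chosen for this pattern, 1 of 54 members was called lower and 1 higher, shares near or below those of all genes. Ift74, a subunit of the IFT-B particle, had 2.67, 5.03 and 4.55 FPKM in Sham-24h and 2.00, 1.41 and 1.88 FPKM in SAP-24h. Its log2 difference was -1.09 ± 0.30 (SE, adjusted p = 0.0216, edgeR), and all SAP-24h rats were below all Sham-24h rats. In Con-24h, Ift74 had 3.42, 1.90 and 3.36 FPKM, which overlapped SAP-24h, and it was not called in SAP-24h vs Con-24h. Ift80, another IFT-B subunit, had 4.44, 4.73 and 4.64 FPKM in Sham-24h and 1.96, 2.60 and 3.19 FPKM in SAP-24h. Its difference of -0.72 ± 0.20 (SE, adjusted p = 0.0213, edgeR) passed the p but was short of 2-fold. Ift74, Ift80 and Dnah3 lie outside the rule for named members and were singled out after their values were seen. The Con-24h level of Ift80, 2.82, 2.47 and 3.70 FPKM, overlapped SAP-24h (log2 difference of SAP-24h minus Con-24h, -0.10 ± 0.20, SE) and lay below Sham-24h (Sham-24h minus Con-24h, 0.62 ± 0.20, SE, adjusted p = 0.0483, edgeR).

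Dnah17 was higher in SAP-24h, by 1.68 ± 0.55 on the log2 scale (SE, adjusted p = 0.0457, edgeR), but at levels near 0. Its rats stood at 0.07, 0.10 and 0.10 FPKM in SAP-24h and 0.03, 0.02 and 0.04 FPKM in Sham-24h. The call held in 1 of 6 fits that left out a rat, the fit without Sham-24h replicate 3. That for Ift74 held in 3 of 6, and was lost without SAP-24h replicate 2, Sham-24h replicate 2 or Sham-24h replicate 3. A fit of the 6 libraries alone called 0 members and 3 genes in all in SAP-24h vs Sham-24h, against 796 genes in the fit of all groups, and leaving out SAP-24h replicate 1 left 1 call in all, while leaving out any 1 of the other 5 rats left 2 or 3.

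Against Con-24h, SAP-24h rats had only Zmynd12 called lower (1 of 57, against 3.26% of all genes) and none called higher, against 3.65%. Without the 3 genes chosen with SAP values known, 0 of 54 were called in either direction. Without Con-24h replicate 3, 2 members were called. The median log2 difference of the members was -0.19, against -0.01 over all genes, and 39 of 57 were below 0. Sham-24h and Con-24h were the groups not given taurocholate, though per the paper the saline infusion itself caused mild pancreatitis. Between them 0 of 57 members were called by edgeR and by DESeq2, where 1.00% of all genes were called. At an unadjusted p under 0.05, edgeR placed 2 members higher and 2 lower, against 14.4% and 12.6%.

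Zmynd12, Ccdc96 and Stoml3 had their lowest group means in Sham-6h and SAP-24h, as did other members such as Cfap126, Tekt1, Tekt4, Dnai1 and Dnai2. Zmynd12, a zinc finger MYND-type protein, had 0.93, 1.23 and 2.17 FPKM in Sham-6h, 0.85, 1.24 and 1.46 FPKM in SAP-24h, and 1.93 FPKM or more in every other library. The SAP-24h rats lay below all rats of the other 24 h groups. Ccdc96, a coiled-coil protein of the axoneme, had 2.34, 1.75 and 2.23 FPKM in Sham-6h and 1.54, 1.86 and 1.86 FPKM in SAP-24h. Among the other 24 h rats its lowest level was 2.87 FPKM, in DEX-24h.

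Stoml3 had 0.12, 0.05 and 0.05 FPKM in SAP-24h and 0.55, 0.58 and 0.51 FPKM in Sham-24h. Such values rest on few reads. The call of Stoml3 in SAP-24h vs Sham-24h was lost whichever of the 6 rats was left out, as was that in Emo-24h vs SAP-24h. Stoml3 reached 1.59 FPKM in a DEX-6h rat and 1.40 FPKM in a DEX-24h rat. The log2 difference of SAP-24h minus Sham-24h was -1.43 ± 0.36 (SE) for Zmynd12, -1.27 ± 0.32 for Ccdc96 and -2.75 ± 0.86 for Stoml3.

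**Figure D5:**
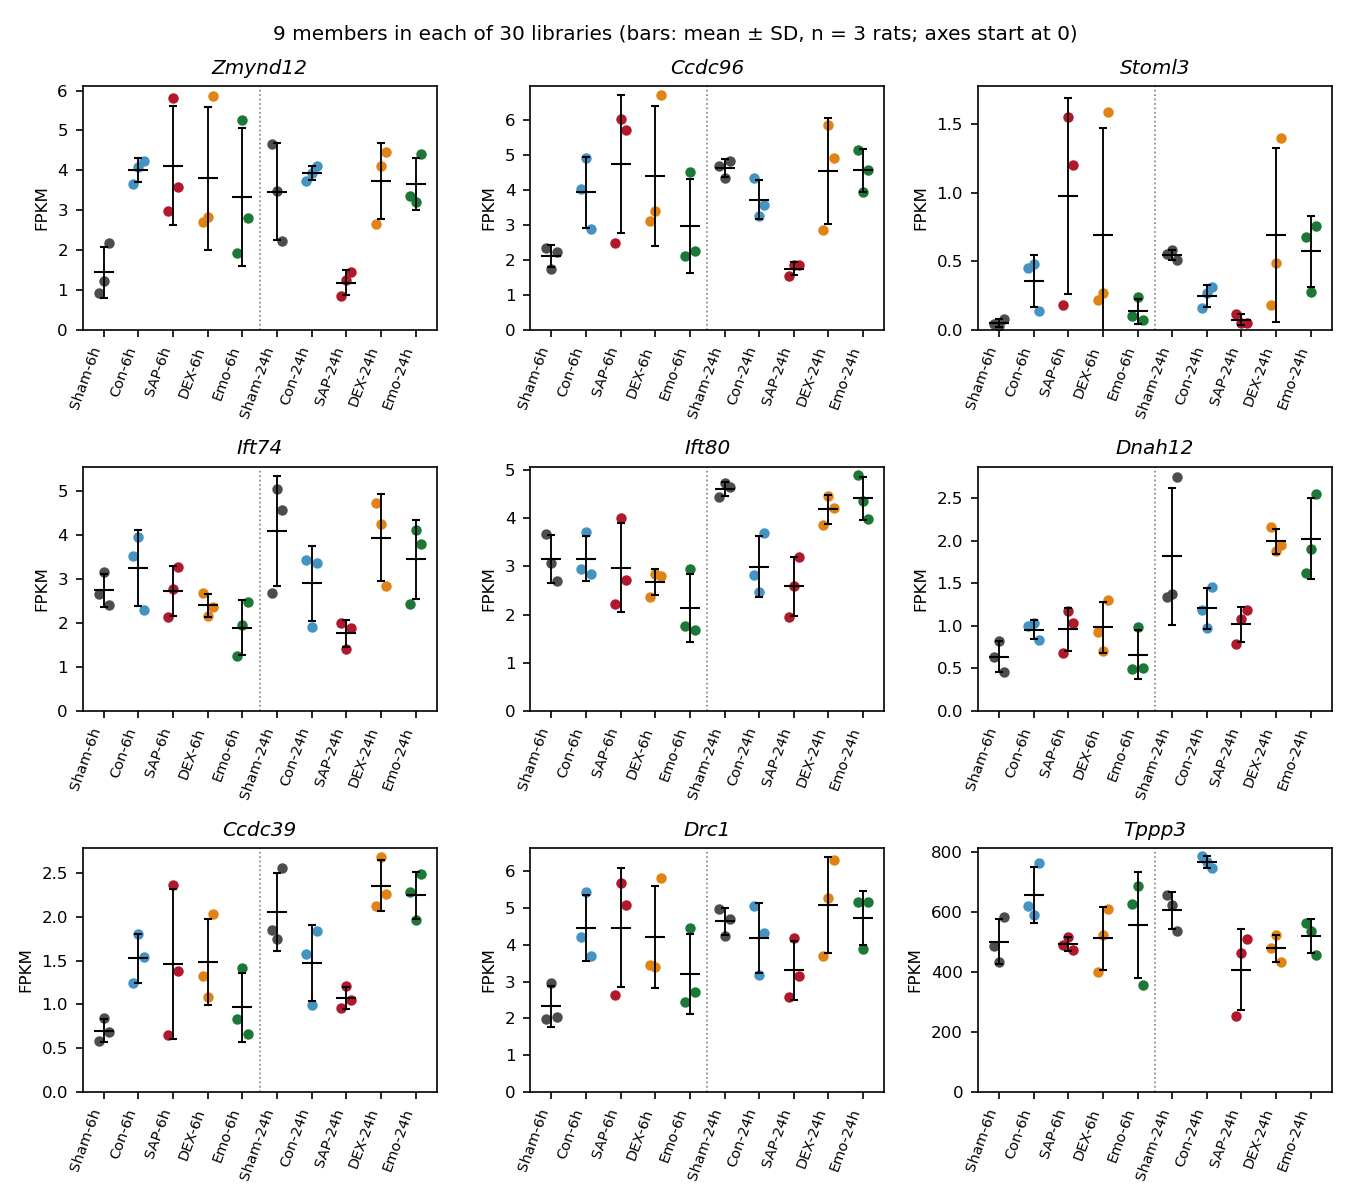
FPKM of 9 members in each of 30 libraries. Points are rats, black bars are mean ± SD of 3 rats, axes start at 0, and the dotted line parts 6 h from 24 h. Zmynd12, Ccdc96 and Stoml3 are lowest in Sham-6h and SAP-24h, and Ift74 and Ift80 are low in both SAP-24h and Emo-6h. Dnah12 and Ccdc39 are highest in Sham-24h, DEX-24h and Emo-24h, and Tppp3 is lowest in a SAP-24h rat.

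With dexamethasone at 24 h, 5 of 57 members were called higher than in SAP-24h, where 1.18% of all genes were, and 1 was called lower, where 2.55% were. The higher ones were Zmynd12, Ccdc96, Stoml3, Ift74 and Ccdc39, and the lower one was Dnah17. Since the SAP-24h rats enter both, this comparison and SAP-24h vs Sham-24h are not independent. Ccdc39, which sets the spacing of dynein arms along the doublet, had 2.12, 2.68 and 2.26 FPKM in DEX-24h and 0.96, 1.21 and 1.05 FPKM in SAP-24h. Its log2 difference was 1.04 ± 0.32 (SE, adjusted p = 0.0467, edgeR), the groups did not overlap, and the call was lost whichever of the 6 rats was left out.

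Ift74 had 4.72, 4.24 and 2.83 FPKM in DEX-24h, a log2 difference of 1.07 ± 0.30 from SAP-24h (SE, adjusted p = 0.0306, edgeR). Zmynd12 had 2.65, 4.11 and 4.45 FPKM in DEX-24h, which is 1.58 ± 0.36 (SE) above SAP-24h on the log2 scale. Ccdc96 differed by 1.29 ± 0.32 and Stoml3 by 3.12 ± 0.86. Over all members tested, 51 of 57 were above 0 in DEX-24h vs SAP-24h, with a median log2 difference of 0.24 against 0.00 over all genes. Without Stoml3, Zmynd12 and Ccdc96, 2 of 54 members were called higher and 1 lower. Leaving out DEX-24h replicate 2, SAP-24h replicate 2 or SAP-24h replicate 3 left 2 calls in all, and without DEX-24h replicate 3 there were 3. A fit of the 6 libraries alone called 2 members and 221 genes in all, against 594 genes in the fit of all groups.

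With emodin at 24 h, 3 of 57 members were called higher than in SAP-24h, where 1.93% of all genes were, and none lower, where 1.26% were. They were Zmynd12 (log2 difference 1.49 ± 0.36, SE), Ccdc96 (1.23 ± 0.32) and Stoml3 (2.80 ± 0.86), the genes chosen with the SAP values known, so that none of the other 54 members was called. Zmynd12 had 3.36, 3.20 and 4.41 FPKM in Emo-24h, all above the SAP-24h rats. Ift80 had 4.89, 4.36 and 3.99 FPKM in Emo-24h, above all SAP-24h rats, and its log2 difference of 0.63 ± 0.20 (SE, adjusted p = 0.0502, edgeR) was not called. The median of the 57 members was 0.22, against 0.01 over all genes. No call was left without Emo-24h replicate 3 or without SAP-24h replicate 1, and 1 was left without either other Emo-24h rat. A fit of the 6 libraries alone called 0 genes of any kind, against 508 genes in the fit of all groups.

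No member separated treated rats from Sham-24h rats at 24 h by the test. In DEX-24h vs Sham-24h and in Emo-24h vs Sham-24h, 0 of 57 members were called by edgeR and by DESeq2, and 0 had an unadjusted p under 0.05 in either direction, against 19.9% and 3.0% of all genes. Over all genes 4.15% were called in the first and 0.0% in the second. The median log2 difference of the members was 0.06 for DEX-24h and 0.02 for Emo-24h. Between the drugs, Emo-24h vs DEX-24h had 0 members called by either tool, with 0 higher and 1 lower at an unadjusted p under 0.05 (against 11.6% and 9.63%), although 5.06% of all genes were called. The 2 drugs were given at different doses and by different routes.

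At 6 h neither drug group differed from SAP-6h in a called member. DEX-6h vs SAP-6h had 0 of 57 called by edgeR and by DESeq2, where 0.515% of all genes were, with 1 member higher and 1 lower at an unadjusted p under 0.05, against 5.72% and 6.38% of all genes. Emo-6h vs SAP-6h had 0 called by both tools, where 0.0251% of all genes were, with 1 member higher and 6 lower at an unadjusted p under 0.05, against 7.59% and 5.88%. Emo-6h rats had a mean z score of -0.685, 0.608 and -0.939 over the 43 members outside the Ift family, and 50 of 57 members were below 0 in the fit, with a median log2 difference of -0.32. Emo-6h vs DEX-6h had 0 called by edgeR, where 1.41% of all genes were, and 1 by DESeq2, with 0 higher and 8 lower at an unadjusted p under 0.05, against 10.0% and 7.3%.

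Against the low Sham-6h group, DEX-6h rats had 14 of 57 members called higher, as against 2.25% of all genes, and none lower, against 1.73%. Leaving aside Ccdc96, Stoml3 and Zmynd12, chosen with their Sham values known, 11 of 54 were called. All 14 lay outside the Ift family. They were the heavy chains Dnah1 and Dnah2, the intermediate chains Dnai1 and Dnai2, Drc7, Ccdc39, Rsph10b, Tekt4, Cfap57, both entries of Cfap46, and Ccdc96, Stoml3 and Zmynd12. Tekt4, a tektin of the doublet wall, had 7.65, 9.72 and 8.22 FPKM in Sham-6h and 17.0, 15.9 and 25.8 FPKM in DEX-6h. Its log2 difference was 1.23 ± 0.21 (SE, adjusted p = 0.000723, edgeR), and every DEX-6h rat lay above every Sham-6h rat. Dnah1 differed by 1.36 ± 0.27 (SE, adjusted p = 0.00317, edgeR), with 1.87, 1.22 and 2.96 FPKM in DEX-6h.

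The count in DEX-6h vs Sham-6h moved with single rats. It was 2 without DEX-6h replicate 3, whose levels were the highest of that group, or without Sham-6h replicate 1, it was 7 without Sham-6h replicate 3, and it was 25 without DEX-6h replicate 2. A fit of the 6 libraries alone called 1 member and 352 genes in all, against 633 genes in the fit of all groups. Emo-6h vs Sham-6h had 0 called by edgeR, where 0.477% of all genes were, and 3 by DESeq2, with 15 members higher and 4 lower at an unadjusted p under 0.05, against 11.9% and 10.7%. Without Emo-6h replicate 2 or Sham-6h replicate 3, edgeR called 1.

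From 6 to 24 h the members were followed within each treatment, and whether the change differed between Sham and Con rats was not tested. In Sham-24h vs Sham-6h, Ccdc39 and Dnah12 were called higher, 2 of 57 members against 0.245% of all genes, and none was lower, against 0.0126%. The 3 Sham-24h rats lay above the 3 Sham-6h rats in 36 of 57 members, which held for 11.5% of all genes, and 35 members were higher at an unadjusted p under 0.05, against 11.0%. Dnah12, a heavy chain of the inner arm, had 0.64, 0.82 and 0.46 FPKM in Sham-6h and 1.34, 1.37 and 2.75 FPKM in Sham-24h, without overlap. Its log2 difference was 1.54 ± 0.30 (SE, adjusted p = 0.0299, edgeR). Ccdc39 rose from 0.58, 0.84 and 0.68 FPKM to 1.85, 1.75 and 2.56 FPKM, by 1.57 ± 0.33 on the log2 scale (SE, adjusted p = 0.0331, edgeR). No call was left without Sham-24h replicate 2 or 3 or Sham-6h replicate 3, and 1 was left without replicate 1 of either group. A fit of the 6 libraries alone called 0 genes of any kind, against 41 genes in the fit of all groups. Outside the set, Sntn (log2 difference 1.29), a ciliated cell gene, and Mlf1 (1.18) and Lrrc6 (1.44), of the axoneme and assembly list, were called higher. Con-24h vs Con-6h had 0 called by edgeR and by DESeq2, where 0.00628% of all genes were, with 1 member higher at an unadjusted p under 0.05, against 4.73%.

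In SAP rats most differences over time were below 0. In SAP-24h vs SAP-6h, Zmynd12, Ccdc96 and Stoml3 were called lower, 3 of 57 members against 1.74% of all genes, none was called higher (0.684% of all genes), and 42 of 57 members were below 0, with a median log2 difference of -0.23. These 3 genes were chosen for it, and none of the other 54 was called. One call was left without SAP-24h replicate 3 or without SAP-6h replicate 2, and 1 in a fit of the 6 libraries alone. Emo-24h vs Emo-6h had Dnah12, Ccdc39, Dnah3 and Ift80 called higher (4 of 57, against 6.33% of all genes) and Dnah17 called lower (1 of 57, against 3.08%). Dnah3 was near 0, with 0.03, 0.04 and 0.02 FPKM in Emo-6h and 0.08, 0.12 and 0.26 FPKM in Emo-24h. Its call held in 1 of 6 fits that left out a rat. Dnah12 rose by 1.58 ± 0.30 (SE, adjusted p = 0.000432, edgeR), from 0.49, 0.99 and 0.51 to 1.62, 1.90 and 2.55 FPKM. Ift80 rose by 1.01 ± 0.20 (SE, adjusted p = 0.000655, edgeR), from 1.77, 2.95 and 1.69 to 4.89, 4.36 and 3.99 FPKM. The count was 11 without Emo-6h replicate 2, 3 without Emo-24h replicate 3 or Emo-6h replicate 1, and 2 without Emo-6h replicate 3. A fit of the 6 libraries alone called 3 members. Markers of other cells were called in this comparison too: Lamp3 of alveolar type 2 cells (log2 difference 1.43), Akap5 of type 1 cells (1.11), Tp63 of basal cells (2.39) and Gp2 of the club and goblet cell list (4.14) were higher, and Cldn5 of endothelium (-1.20) and Actg2 of smooth muscle (-1.27) were lower. The lists of these markers held genes on both sides of 0. Above and below 0 were 2 and 6 alveolar type 2 genes, 4 and 4 type 1 genes, and 6 and 1 basal genes. Club and goblet genes were 6 and 4, endothelial genes 3 and 4, and smooth muscle and cartilage genes 3 and 6. Of the ciliated cell markers, Sntn (1.30) and Capsl (1.11) were called higher. Nme5, Lrriq1, Dyx1c1 and Efhc2, 4 of the 42 axoneme and assembly genes, were also called higher, as was Bbs5 of the BBSome.

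In DEX-24h vs DEX-6h, Dnah12 was called higher and Dnah17 lower, 1 member each way, against 3.23% and 3.91% of all genes. Dnah12 had 0.93, 0.71 and 1.31 FPKM at 6 h and 2.16, 1.88 and 1.95 FPKM at 24 h, a log2 difference of 1.05 ± 0.29 (SE, adjusted p = 0.0114, edgeR). With the replicate number as a block, 1 member was called higher and 0 lower, so the call of Dnah17 was lost. The same held without DEX-24h replicate 2, DEX-24h replicate 3 or DEX-6h replicate 1. Without DEX-6h replicate 2 the call of Dnah12 was lost instead, with 0 higher and 1 lower. Without DEX-6h replicate 3, 3 members were called. Dnah12 was thus called higher at 24 h in Sham, DEX and Emo rats. It was not called in Con rats (1.00, 1.04 and 0.83 FPKM at 6 h and 1.19, 0.98 and 1.46 FPKM at 24 h) or in SAP rats (0.68, 1.17 and 1.03 FPKM and 0.79, 1.08 and 1.19 FPKM), and whether the groups differ in this was not tested.

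Whether the effect of SAP differed between times was tested as an interaction, the log2 difference of SAP minus Sham at 24 h less that at 6 h. It was below 0 in 54 of 57 members, with a median of -0.93 against 0.01 over all genes, and 35 members had an unadjusted p under 0.05 below 0, as against 7.05% of all genes, or 32 of 54 without the 3 chosen genes. Only Stoml3, Zmynd12 and Ccdc96, chosen for it, were called, where 0.0251% of all genes were below 0 and called and 0.00628% above. Leaving out SAP-6h replicate 1 gave 4 calls, leaving out Sham-24h replicate 3 or Sham-6h replicate 3 gave 1, and leaving out any of the other 9 rats gave none. The low Sham-6h level enters this contrast as much as the low SAP-24h level does. For emodin (Emo minus SAP, 24 h less 6 h), Ift80 was the called member outside those 3, at 1.12 ± 0.28 (SE, adjusted p = 0.0358, edgeR), among 4 of 57 called higher against 1.06% of all genes, with none lower against 0.621%. It was called in 6 of 12 fits that left out a rat. Outside the set, Sntn (1.70), Bbs5 (1.14) and the cartilage gene Comp (2.76) were called higher in the emodin interaction. All 7 basal cell genes were above 0 there (median 2.58) and all 8 neutrophil genes below (-1.06). Of 9 smooth muscle and cartilage genes, 5 were above 0 and 4 below. The count for emodin was 8 without Emo-6h replicate 2 or SAP-6h replicate 1. It was 0 without Emo-6h replicate 1, Emo-6h replicate 3 or SAP-6h replicate 2, and it was 1 or 2 without Emo-24h replicate 1, Emo-24h replicate 2, SAP-24h replicate 1 or SAP-6h replicate 3. For dexamethasone 0 members were called by edgeR, against 0.138% of all genes, and 1 by DESeq2, with 9 higher and 1 lower at an unadjusted p under 0.05, against 6.27% and 7.33%.

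Tppp3, the most abundant member, kept apart from the axoneme genes. It had 656, 622 and 536 FPKM in Sham-24h and 253, 462 and 508 FPKM in SAP-24h, lower in every rat, and 744 to 785 FPKM in Con-24h. Ift20, an IFT-B subunit that is also abundant, had 23.6 to 39.1 FPKM in SAP-24h and 34.4 to 39.7 FPKM in Sham-24h. None of Tppp3, Ift46, Cfap20 and Ift20 was called in any of the 24 tests. Tektins 2 and 3 and Rsph9 followed the axoneme pattern in part, with r of 0.59, 0.654 and 0.706.

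Other genes of cilia followed the members across rats. Of 9 ciliated cell markers outside the set, all were above 0 in SAP-6h vs Sham-6h (median log2 difference 0.88) and 7 were below 0 in SAP-24h vs Sham-24h (median -0.31), and none was called in either. Their summed level was 93.1 to 128 FPKM in Sham-6h and 147 to 221 FPKM in Con-6h. At 24 h it was 195 to 235 FPKM in Sham-24h and 132 to 154 FPKM in SAP-24h. None of the 9 was at 0. In SAP-24h vs Con-24h, 4 of the 9 were above 0 and 5 below (median -0.005). Of 42 tested genes of the axoneme and of dynein arm assembly outside the set, 40 were above 0 in SAP-6h vs Sham-6h (median 0.78, none called) and 35 were below 0 in SAP-24h vs Sham-24h (median -0.35, with Efhc2 called lower at -1.33 ± 0.39, SE, adjusted p = 0.0276, edgeR). Over the 30 libraries, the mean z scores of the 9 markers and of the 42 genes had r of 0.922 and 0.983 with the 43 members. For 10 ciliogenesis factors, among them Rfx2, Rfx3 and Mcidas, r was 0.692, and none was called in either comparison. In DEX-6h vs Sham-6h, the comparison with the most called members, 2 of the 9 markers (Hydin, 1.20, and Cdhr3, 1.50, as log2 differences), 2 of the 10 factors (Gmnc, 1.62, and Tp73, 1.13) and 8 of the 42 axoneme and assembly genes were called higher, Hydin being in both of its lists, and none lower. FOXJ1's gene is not analysed here. For 8 BBSome genes, which load cargo onto IFT particles, r was 0.62.

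Markers of other cells of the airway wall moved with the members as well. The mean z score of 10 club and goblet cell genes had r of 0.834 with the 43 members over 30 libraries, and that of 7 basal cell genes 0.764. All 7 basal cell genes were below 0 in SAP-24h vs Sham-24h and in Sham-6h vs Con-6h, with median log2 differences of -1.36 and -1.19. In SAP-6h vs Sham-6h, 6 of 7 basal cell genes (median 1.16) and 8 of 10 club and goblet cell genes (median 0.40) were above 0, none called. The endothelial gene Kdr was called lower there (-1.21 ± 0.23, SE, adjusted p = 0.0246, edgeR), while 4 of 7 endothelial genes were above 0 (median 0.08). Krt14, a keratin of the basal list, was called lower in SAP-24h vs Sham-24h, by -1.36 ± 0.29 (SE, adjusted p = 0.00441, edgeR). It was called higher in DEX-24h vs SAP-24h, by 1.52 ± 0.29 (SE, adjusted p = 0.00239, edgeR). At 6 h it was lower in every SAP rat (56.97, 63.08 and 71.01 FPKM) than in every Sham rat (81.96, 77.2 and 151.35 FPKM). That was against most of the list, and whether Krt14 stood for basal cells was not tested. Dapl1, Ngfr, Krt5 and Tp63 averaged 0.441, 0.336, 0.267 and 0.086 FPKM. Such levels rest on few reads, and the basal list medians include them. The summed basal list, of which Krt14 made up nearly all (mean 86.1 FPKM over 30 libraries, against 5.28 FPKM for Krt15, the next), was 33.5 to 48.4 FPKM in SAP-24h and 103 to 131 FPKM in Sham-24h, whereas it overlapped between Sham-6h (82.7 to 155 FPKM) and Con-6h (90.8 to 129 FPKM). Cartilage and airway smooth muscle genes (r = 0.25), alveolar type 2 (r = 0.327), alveolar type 1 (r = 0.108), endothelial (r = 0.129) and neutrophil genes (r = 0.09) followed the members less. Other genes called in SAP-24h vs Sham-24h were Aqp5 (log2 difference -1.55) and Akap5 (-1.17) of alveolar type 1 cells and Emcn (-1.19) of endothelium. Of 7 endothelial genes, 3 were above 0 and 4 below in it (median -0.04). In DEX-24h vs SAP-24h the mucin gene Muc5ac was called higher (3.43), at low levels of 0.11, 1.16 and 0.52 FPKM against 0.04, 0.04 and 0.07 FPKM. There 6 of 7 basal cell genes (median 1.40) and 9 of 9 smooth muscle and cartilage genes (0.54) were above 0. Of 8 neutrophil genes 7 were below 0 (-1.93). With emodin at 24 h, against SAP-24h, 7 of 7 basal cell genes (1.63) and 9 of 9 smooth muscle and cartilage genes (0.885) were above 0. All 8 neutrophil genes were below 0 (-1.21). In Emo-24h vs SAP-24h Efhc2 (1.23) and the cartilage gene Comp (1.58) were called higher and Sftpd, a surfactant protein gene, lower (-1.01), and Comp was called lower in SAP-24h vs SAP-6h (-2.41). In DEX-6h vs Sham-6h, 9 of 10 club and goblet cell genes were above 0 (median log2 difference 1.11, none called). Aqp5 (-1.82), Akap5 (-1.38) and the endothelial gene Kdr (-1.46) were called lower. Of 8 alveolar type 1 genes 6 were below 0 there, while of 7 endothelial genes 4 were above 0 (median 0.035). The neutrophil list summed to 4611 to 17712 FPKM in SAP-24h, 403 to 9496 FPKM in Sham-24h and 212 to 1236 FPKM in Con-24h. In SAP-24h vs Con-24h, 7 of 8 tested neutrophil genes were called higher (median log2 difference 4.92), and Krt14 (-1.62), Krt17 (-3.76), Aqp5 (-1.85), Kdr (-1.25) and Comp (-1.61) were called lower. Krt17 was low apart from 1 Con-24h rat, with 10.33, 0.59 and 1.40 FPKM in Con-24h and 0.36, 0.21 and 0.26 FPKM in SAP-24h. The part of the amount of airway in a piece of lung in these results was not tested.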

How the data were processed

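Per the paper's methods, the authors made poly(A)-selected, strand-aware libraries, mapped reads with TopHat2 to the rat Ensembl genome (rat_ensembl_v6) and kept reads mapping to 1 place, which can lower genes with near-identical copies. The submitters' processing notes also name bcl2fastq and edgeR. The deposited counts are raw reads per gene, and the deposited FPKM values, for 22907 genes, are rounded to 2 decimals.

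Members and gene lists were chosen with earlier results of these data known. Counts were fitted with edgeR 4.0.16 (R 4.3.3, limma 3.58.1) over 30 libraries and 10 groups, with TMM scaling, filterByExpr (minimum count 10, minimum total 15) and 20 residual degrees of freedom, for 21 comparisons and 3 interactions. Called means a Benjamini-Hochberg adjusted p under 0.05 and at least 2-fold. Each rat is a replicate. Levels used log2(FPKM + 1), with z scores per gene. Named with values were the members given singly, the 3 of each family with the highest mean FPKM, and the 3 called members with the largest change each way where SAP-24h was set against SAP-6h or any of Sham, DEX and Emo at 24 h, with up to 5 called genes of each list there. The 15 most alike genes had a mean of at least 0.5 FPKM. One of them is not reported here. On simulated counts (SAP-24h vs Sham-24h, 15934 genes) the test found 49 of 100 genes changed 2-fold and 78 of 100 changed 4-fold, and 8 unchanged ones. Alternatives were DESeq2 1.42.0, its size factors in edgeR, no filter, only the groups compared, a replicate block, each rat left out, a pseudocount of 0.1 and only members averaging 0.5 FPKM or more. Same-numbered rats correlated above 0.1 in all 3 pairs (0.210, 0.215 and 0.223) in 1 of 21 comparisons, DEX-24h vs DEX-6h. Over all comparisons r ran from -0.355 to 0.353. Different rats were used at each time and the labels name no pairs, so the main fit did not pair them. No replicate pair agreed within counting noise. Statistics used numpy 2.4.6, pandas 2.3.3 and scipy 1.17.1 in Python 3.11.15, and plots matplotlib 3.10.9.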

Additional observations from a re-analysis of the deposited data

Results flagged for a closer look

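Ccdc96, Stoml3 and Zmynd12 were put in the set with their change between SAP and Sham rats over time known, so their values are a description and test nothing. The interaction (SAP minus Sham at 24 h, less that at 6 h, on the log2 scale) was -2.48 for Ccdc96, -7.04 for Stoml3 and -2.98 for Zmynd12. The effect of emodin differed between times, by an edgeR interaction test, in Ift80, which was 1 of 54 members without those 3 genes (1.06% of all genes were called higher). It was called in 6 of 12 fits that left out a rat and not in a fit of only the groups compared, which called 2 genes in all. That interaction (Emo minus SAP at 24 h, less that at 6 h) was 1.12 for Ift80, and, as a description only, 1.91 for Ccdc96, 5.61 for Stoml3 and 1.81 for Zmynd12, since the SAP values that chose them enter it. The same SAP rats enter both, so these values are not independent. With 3 rats a group, single rats were not tested for standing apart.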

How the results depend on the processing

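Of 591 refitted values of the 50 called differences of members, 350 were still called and 241 were not, and none changed sign. Over 1526 refitted values of all 135 differences followed, called or not, 39 changed sign. With DESeq2's size factors no count moved by over 1.5 times. Counts of called members that did move were these. DESeq2 called 12 in SAP-6h vs Sham-6h, 3 in Emo-6h vs Sham-6h, 1 in Emo-6h vs DEX-6h, 8 in Sham-24h vs Sham-6h, and 6, 1 and 8 in the SAP, DEX and Emo interactions with time. Fitting only the groups compared left 0 in SAP-6h vs Sham-6h, SAP-24h vs Sham-24h, Emo-24h vs SAP-24h, Sham-24h vs Sham-6h and the SAP and Emo interactions, 1 in DEX-6h vs Sham-6h, SAP-24h vs SAP-6h and DEX-24h vs DEX-6h, 2 in DEX-24h vs SAP-24h and 3 in Emo-24h vs Emo-6h. Without the filter 1 was called in SAP-6h vs Sham-6h and in DEX-24h vs DEX-6h, and 3 in Emo-24h vs Emo-6h. With the replicate block 0 was called in SAP-6h vs Sham-6h and 1 in DEX-24h vs DEX-6h, and no other count moved by over 1.5 times. The cause was not tested.

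Leaving out 1 rat gave 0 to 11 called members in SAP-6h vs Sham-6h, 2 to 25 in DEX-6h vs Sham-6h, 0 to 1 in Emo-6h vs Sham-6h, 1 to 3 in SAP-24h vs Sham-24h, 1 to 2 in SAP-24h vs Con-24h, 2 to 4 in DEX-24h vs SAP-24h, 0 to 2 in Emo-24h vs SAP-24h, 0 to 2 in Sham-24h vs Sham-6h, 1 to 3 in SAP-24h vs SAP-6h, 1 to 3 in DEX-24h vs DEX-6h, 2 to 11 in Emo-24h vs Emo-6h, 0 to 4 in the SAP interaction and 0 to 8 in the Emo interaction, and 0 elsewhere. The median log2 level of the members in Con-6h against Sham-6h was 0.393 with a pseudocount of 1 and 0.641 with 0.1. Low members such as Dnah17, Dnah8, Dnah3 and Stoml3 rest on few reads, so their FPKM steps are coarse. The marker genes Tp63, Krt5, Ngfr, Dapl1 and Muc5ac are low in the same way.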
